A study of Mus musculus with 217 samples.

Results

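The ribosome-bound mRNA of lung endothelial cells (ECs) was compared directly with that of heart ECs at 0 hr, that is, in animals that had received no endotoxin. Libraries were taken where the labels gave lung or heart and 0 hr, the sequencing runs of one library were summed, and libraries with under 3% of their reads on genes were left out. This kept 9 of 11 libraries, 4 from lung and 5 from heart, out of 98 libraries in the whole series, of which 80 passed the same minimum. All animals were adult C57BL/6J mice of the genotype Cdh5CreERT2/+; Rpl22HA/+, in which the promoter of VE-cadherin (Cdh5) drives a tamoxifen-inducible Cre and the recombined cells carry an HA-tagged ribosomal protein, Rpl22. Every mouse, controls included, had been given 4 gavages of 5 mg of tamoxifen, on alternate days, when 4 to 6 weeks old. Tagged ribosomes were pulled down from homogenates of the whole frozen organ with an anti-HA antibody, and the bound RNA was sequenced. The other groups of the study were brain, and all 3 organs after intraperitoneal lipopolysaccharide (LPS, 10 mg/kg). The authors state that PBS-injected mice served as controls and that tagged ribosomes were present 4 weeks after tamoxifen. The exact age of the mice at tissue collection was not given in the sources used here.

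The lung capillary bed receives the whole output of the right heart, exchanges gas across a very thin wall, and removes or converts circulating amines, peptides and prostaglandins. The coronary capillary bed feeds a muscle that burns mainly fatty acids, and its ECs take up and pass on lipid through binding proteins, lipoprotein lipase and the transcription factors Meox2 and Tcf15. VE-cadherin is made by nearly all ECs, so the tagged cells may also include lymphatic, arterial, venous and, in the heart, endocardial cells.

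The lung libraries held 3666859, 21404484, 43417945 and 12226617 counts on genes (replicates 1 to 4) and the heart libraries between 9792631 and 26666744. Reads on genes made up 18.8%, 19.2%, 28.6% and 56.2% of reads in the 4 lung libraries and 60.5% to 65.7% in the 5 heart libraries. Lung averaged 30.7% ± 17.6 (SD, n = 4) and heart 63.4% ± 1.86 (SD, n = 5), a difference of −32.6 percentage points (two-sided exact permutation test over libraries, p = 0.0159, the smallest this design can give). Within the first of the 2 library series among these libraries, told from the naming of the deposited count tables, the difference was −26.1 points (2 lung, 2 heart) and within the other it was −39.3 points (2 lung, 3 heart). Lung replicates 1 to 3 stood apart from lung replicate 4. Gm42418, a gene model overlapping ribosomal RNA, took 15.5%, 15.6% and 10.2% of their counts, against 0.934% in lung replicate 4 and 0.204% to 0.427% in heart. Across genes, log2 CPM correlated at r = 0.979 to 0.986 between heart libraries, 0.922 to 0.942 among lung replicates 1 to 3, and 0.813 to 0.859 between lung replicate 4 and the other lung libraries, while lung replicate 4 with heart gave 0.804 to 0.821 and the other lung libraries with heart 0.609 to 0.681. These correlations are descriptions over genes, which are not independent. Counts or medians of the endothelial lists and gene families below are therefore also given with lung replicate 4 as the only lung library. Lung replicate 4 and heart replicate 5 had Xist counts (241 and 1053) and no counts of 4 Y-linked genes, whereas the other 7 libraries had counts of the Y-linked genes.

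The endothelial identity of both groups was checked first. Levels are log2 CPM (counts scaled to a library of 1000000) after TMM scaling with a prior count of 2, on which a gene with no counts in a library reads −3.29, and they can be compared between libraries but not between genes. Pecam1 (CD31), a junctional adhesion molecule of ECs, was at 9.93, 10.55, 10.66 and 11.37 in lung and at 10.96, 10.76, 11.05, 11.15 and 10.90 in heart. Cdh5, the gene whose promoter drives the Cre, was at 8.95, 8.30, 9.19 and 11.00 in lung and between 10.31 and 10.80 in heart. Lung replicate 4 was the highest of all 9 libraries for both genes, lung replicate 1 was the lowest for Pecam1 and lung replicate 2 for Cdh5, and the groups overlapped. Neither gene passed the test, with a log2 fold change (lung over heart, positive when higher in lung) of −0.25 (SE 0.33, edgeR quasi-likelihood test, adjusted p = 0.53) for Pecam1 and −1.05 (SE 0.53, adjusted p = 0.112) for Cdh5. Both results rested on lung replicate 4. Against the heart libraries it alone gave 0.49 and 0.58, the opposite sign, and without it both genes were higher in heart (−0.63, adjusted p = 0.0147, and −1.75, adjusted p = 7.18e-05). Rpl22, the tagged ribosomal protein, had a mean of 7.00 ± 0.41 (SD) over the 4 lung libraries and of 6.55 ± 0.10 over the 5 of heart (adjusted p = 0.0745 by edgeR).

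Markers of other cell types differed widely between the groups, and RNA of neighbouring cells in the pull-down and expression in ECs cannot be told apart in bulk libraries. All 14 airway epithelial markers, 11 of 12 tested alveolar type 2 markers and 8 of 9 alveolar type 1 markers were higher in lung, and 17 of 20 cardiomyocyte markers were higher in heart. The summed CPM of the alveolar type 2 list was 11000, 7830, 7540 and 3080 in lung and 234 to 331 in heart, and that of the airway list 2050 to 5430 in lung and 95.4 to 135 in heart. The sums of the alveolar type 1 list overlapped, at 1370, 1270, 1590 and 2060 in lung and 788 to 1320 in heart. The cardiomyocyte list summed to 109 to 218 in lung and 6300 to 12600 in heart. Of the blood cell lists, all 8 neutrophil, all 11 lymphocyte and 12 of 16 macrophage and monocyte markers were higher in lung, with macrophage sums of 900, 1050, 281 and 365 in lung and 60.5 to 104 in heart. Fibroblast markers split 9 to 2 and pericyte and smooth muscle markers 8 to 3 towards lung. Of the other lists, 3 of 5 mesothelial, 3 of 5 adipocyte and 3 of 5 erythroid markers were higher in lung, against 1, 1 and 0 in heart. Over all genes tested, 29.0% were higher in lung and 29.5% in heart. Mesothelial sums, at 23 to 52.1 in lung, were nonetheless lower than in every heart library (83.6 to 109). Sums overlapped for the pericyte (270 to 627 in lung, 367 to 684 in heart), adipocyte (11 to 37 and 23.1 to 49.2) and erythroid lists. Lymphatic markers split 1 to 1 of 5 and endocardial markers 2 to 2 of 6, and the 1 hepatocyte marker tested, Ahsg, was higher in heart. With lung replicate 4 as the only lung library, 7 of 16 macrophage and monocyte markers were higher in lung, fibroblast markers split 7 to 3, lymphatic markers 2 to 0 and endocardial markers 2 to 1, and the counts of the remaining lists stayed within 1.5 times of these. Lung replicate 4 had the highest sum among the lung libraries for the lymphatic list (1090, against 362 to 386) and the endocardial list (3740, against 235 to 373), the latter including Tmem100, which also marks lung capillaries. Tmem100 had 36812 of the 12226617 counts on genes of lung replicate 4. Heart replicate 2 stood above the other heart libraries for genes known from lung epithelium, and the source of these transcripts was not tested. Sftpc (surfactant protein C) was at 5.18 in heart replicate 2 and between −2.40 and −1.38 in the other heart libraries, and Scgb1a1 (club cell secretoglobin), at 2.83, was likewise highest there.

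**Figure D1:**
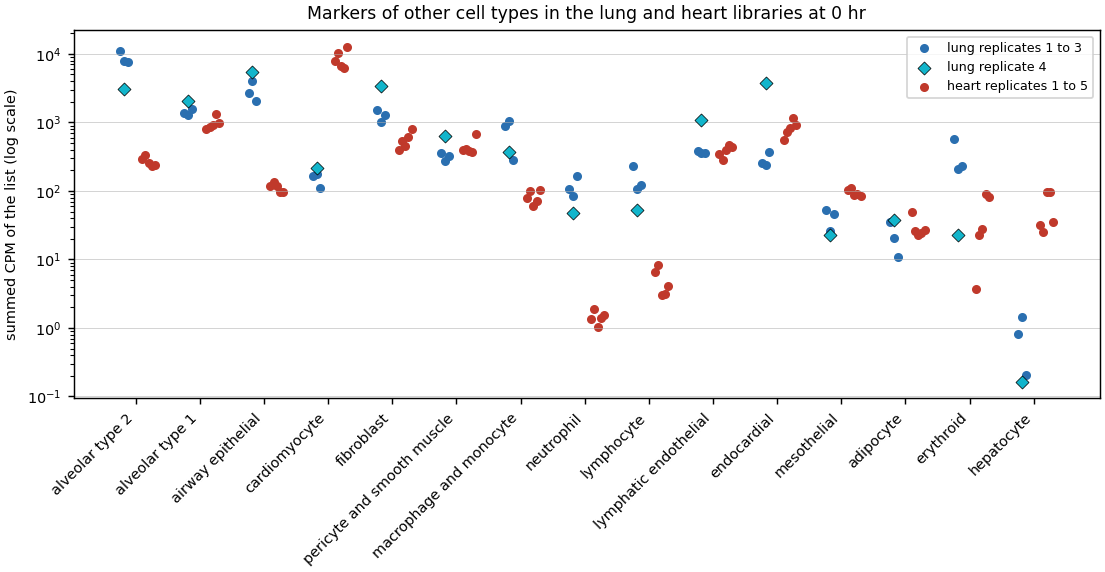
Summed CPM of the markers of 15 other cell types in each library, on a log scale, with lung replicates 1 to 3 as blue points, lung replicate 4 as a diamond and heart as red points. The sums of the alveolar type 2, airway, macrophage, neutrophil and lymphocyte lists lay higher in all lung libraries. Those of the alveolar type 1, erythroid, adipocyte and pericyte lists overlapped. Sums of cardiomyocyte and mesothelial markers lay higher in all heart libraries. Lung replicate 4 stood above the other lung libraries for the endocardial list (3740). That list includes Tmem100, which also marks lung capillaries and had 36812 of the 12226617 counts on genes of this library.

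Of 15267 genes tested, 4429 (29.0%) were higher in lung and 4502 (29.5%) were higher in heart at an adjusted p under 0.05 (edgeR quasi-likelihood test with the library series as a covariate), which together is 58.5% of the genes. The median log2 fold change over all genes was −0.16. Every lung library lay above every heart library for 3379 genes (22.1%), and the reverse held for 3984 (26.1%). With lung replicate 4 as the only lung library, whose spread is then taken from the heart libraries, 2249 of the genes higher in lung (14.7% of all tested) and 2597 of those higher in heart (17.0%) were called the same way again. The opposite call was made for 38 genes and for 0 genes. Both fits used the same heart libraries and lung replicate 4 itself, so their calls are not independent of each other. The fit with lung replicate 4 alone called fewer of all genes, so its list counts cannot be set against 29.0% and 29.5%. Its median log2 fold change over all genes was −0.045. No spread between lung libraries enters it, so its calls describe that 1 library. Within the first library series, with 2 libraries a group, edgeR called no gene at an adjusted p under 0.05, with 2068 genes higher in lung and 1693 higher in heart at an unadjusted p under 0.05. The sign there was the same for 4056 of the 4058 genes higher in lung and 4251 of the 4252 genes higher in heart that could be tested. These libraries are part of the main fit and the genes were chosen by its calls. The agreement in sign was therefore largely fixed in advance and is no separate support. Within the second series, 5136 genes were higher in lung and 5876 in heart. In all these comparisons, fewer ECs of a kind and less RNA per cell cannot be told apart.

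**Figure D2:**
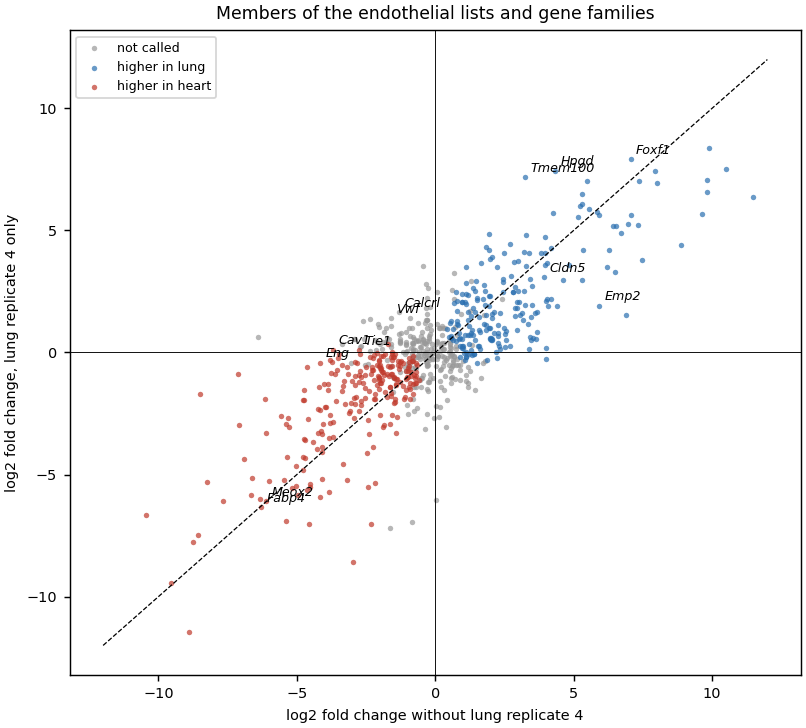
Log2 fold change of the members of the endothelial lists and gene families without lung replicate 4 (horizontal) and with lung replicate 4 as the only lung library (vertical), both against the same 5 heart libraries. Colours give the call with all 4 lung libraries, and the dashed line marks equal values. Fabp4, Meox2, Foxf1 and Hpgd kept a large difference on both axes, whereas Cav1, Eng and Tie1 lay near 0 with lung replicate 4 alone.

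The largest differences among well-expressed genes, with no overlap between the groups, included many genes known from neighbouring cells. Scgb3a2, an airway secretoglobin, had 19060 counts over the 4 lung libraries and 1 count over the 5 heart libraries, a ratio of CPM of 2.29e+04 (exact counting interval 4.1e+03 to 9.03e+05, counting error only). Foxa2, a transcription factor of endoderm, had 4995 and 2 counts (3e+03, interval 829 to 2.48e+04). Others of this group were Pigr (polymeric immunoglobulin receptor), Sftpc, Cyp2f2, Slc34a2, Wfdc2, Cdh1 (E-cadherin) and Cldn18, most of which are known from alveolar or airway epithelium, with log2 fold changes between 10.04 and 13.77. On the heart side stood Myl2, Myl3 and Pln, the ventricular myosin light chains and phospholamban of cardiomyocytes, between −9.06 and −8.49. Adprhl1 had 1 count in lung and 8932 in heart, a ratio of 7.44e+03 in favour of heart (interval 1.34e+03 to 2.94e+05). Kcna5 (a voltage-gated potassium channel), H19, Ebf3 and Fhl2 lay between −9.19 and −7.65, and 2 of these, H19 and Ebf3, overlap a gene on the other strand, as do Myl2, Myl3, Pln and Cyp2f2, so that reads of both strands could not be told apart where the counting ignored strand. The part of neighbouring cells in these differences was not tested.

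Some genes in the same range were on none of the marker lists for other cells. Sox11, a SoxC transcription factor, was at 8.11, 11.10, 10.61 and 6.61 in lung and between −1.38 and 0.61 in heart (log2 fold change 10.08, SE 0.80, adjusted p = 1.78e-05 by edgeR). Rprml was at 6.28, 6.60, 6.50 and 4.61 in lung and between −3.29 and −1.90 in heart (10.28, SE 0.67). Lung replicate 4 was the lowest lung library for both, at a level still far above every heart library. Slc6a2, the noradrenaline transporter with which lung ECs clear noradrenaline from blood, was at 7.25, 9.05, 8.47 and 8.87 in lung, at 2.81 in heart replicate 2, and had no counts in the other 4 heart libraries. On the heart side, Aqp7, a water and glycerol channel, was at 1.71, 0.04, −0.59 and 1.01 in lung and at 8.64, 8.73, 9.09, 8.88 and 8.36 in heart, a 342-fold difference (log2 −8.42, SE 0.53, adjusted p = 7.83e-06 by edgeR). Slc28a2, a nucleoside transporter, followed at −8.18.

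**Figure D3:**
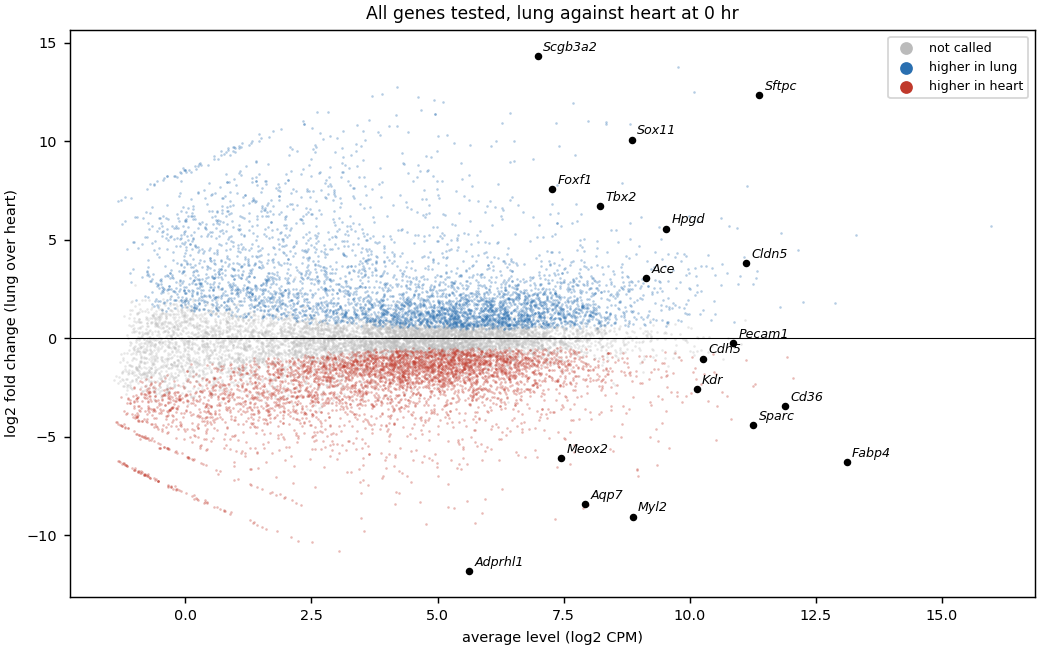
Log2 fold change (lung over heart) against average level (log2 CPM) of all 15267 genes tested, with genes higher in lung in blue, genes higher in heart in red, and genes not called in grey. Fitted fold changes of genes with next to no counts in one organ, such as Scgb3a2 and Adprhl1, depend on the prior count. Pecam1 (−0.25) and Cdh5 (−1.05) lay close to 0 among the highly expressed genes.

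Genes of fatty acid uptake and triglyceride handling were mostly higher in heart. Of 27 tested, 19 were higher in heart and 4 in lung, with a median log2 fold change of −2.61 against −0.16 over all genes. With lung replicate 4 alone, 17 and 2 were called, at a median of −1.88. Fabp4 (chr3:10204088-10208576, mm10), the fatty acid-binding protein of capillary ECs, was at 8.06, 7.60, 7.28 and 7.75 in lung and at 14.17, 13.96, 13.97, 13.73 and 13.82 in heart. The libraries of each organ lay close together, and the groups were far apart, by 78.2-fold (log2 −6.29, SE 0.42, adjusted p = 9.32e-06 by edgeR, −6.34 with lung replicate 4 alone). Cd36 (chr5:17781690-17888801), the fatty acid translocase, was at 8.81, 9.05, 8.71 and 9.96 in lung and 12.63, 12.38, 12.68, 13.04 and 12.32 in heart (10.9-fold, log2 −3.45, SE 0.42, adjusted p = 0.000139). Fabp5 (−6.37), Rbp7 (−5.22), a retinol-binding protein of capillary ECs, and Dgat2 (−3.74), which makes triglyceride, were also higher in heart. Fabp3 (−4.86), the isoform of heart muscle, was higher in heart as well, as was the cardiomyocyte list. In lung Fabp3 was lowest in replicate 4 (−1.05), which had the highest cardiomyocyte sum of the lung libraries (218). All lung sums of that list were far below those of heart (6300 to 12600). The part of cardiomyocytes in the Fabp3 difference was not tested. Lpl, the lipase that ECs carry on their surface, was higher in heart with all lung libraries (−2.32, SE 0.54, adjusted p = 0.00439 by edgeR). Its difference was smaller with lung replicate 4 alone (−1.19). The authors listed Lpl among the most abundant genes of whole heart tissue, and the part of other cells in its difference was not tested. Gpihbp1, the anchor that holds lipoprotein lipase on capillaries, was at 9.26 to 10.33 in lung and 10.22 to 10.55 in heart. It did not pass the test (−0.64, SE 0.30, adjusted p = 0.091 by edgeR). The 4 members higher in lung were Slc27a4, a fatty acid transport protein (2.02), Dgat1 (0.86), Plin2, a lipid droplet coat protein (0.78), and Lipg, endothelial lipase (3.31), and with lung replicate 4 alone only Lipg of these was called.

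The transcription factors of this program stood on the same side. Meox2 (chr12:37108540-37179534) was at 2.53, 1.16, 2.67 and 2.08 in lung and at 7.79, 8.38, 8.25, 8.67 and 8.18 in heart, a 68.5-fold difference (log2 −6.10, SE 0.42, adjusted p = 1.06e-05 by edgeR). Its partner Tcf15 was at 0.07, 2.79, 2.09 and 0.32 in lung and between 6.54 and 7.88 in heart (−5.76, SE 0.49). Pparg, a nuclear receptor that drives Fabp4 and Cd36, was at 1.37 to 2.72 in lung and 6.57 to 7.08 in heart (−4.60, SE 0.30). For all 3 the groups did not overlap, and all 3 were called with lung replicate 4 alone.

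**Figure D4:**
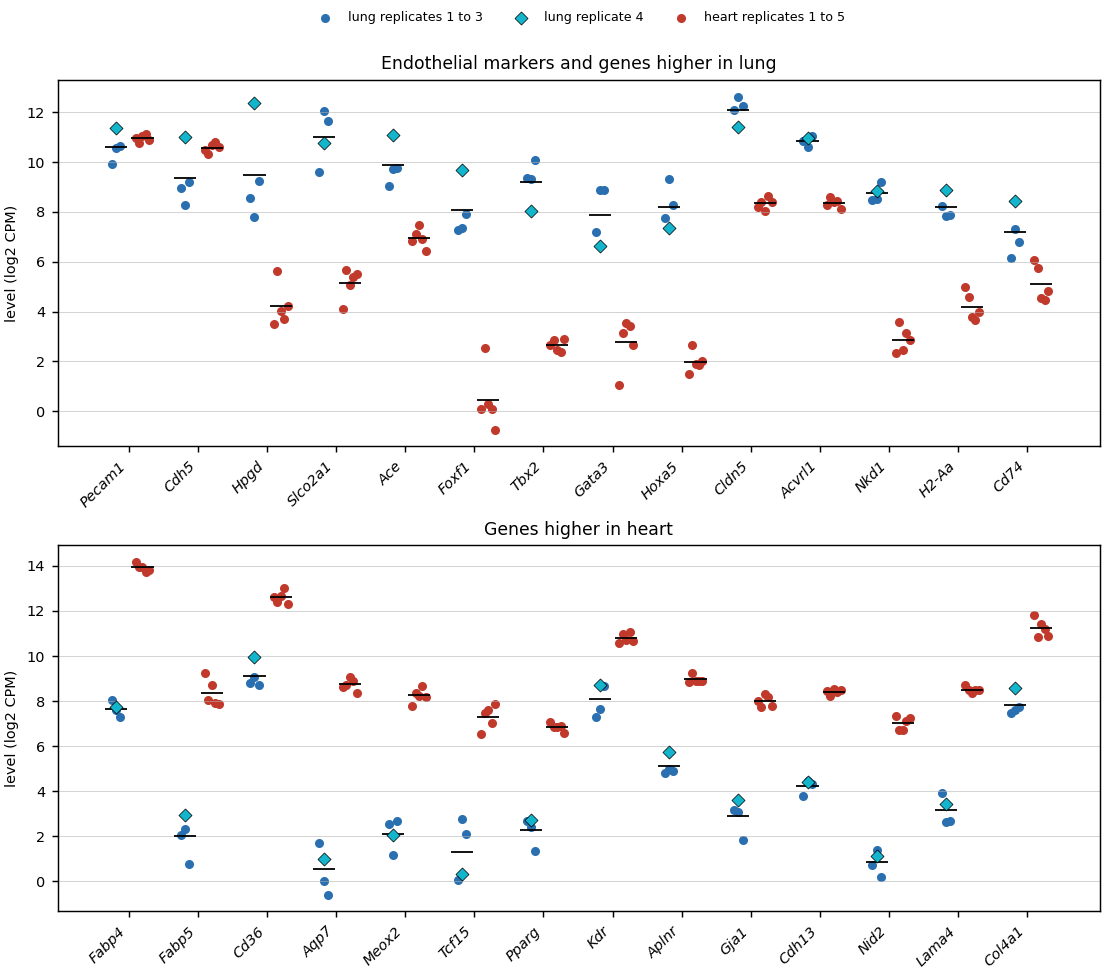
Level (log2 CPM) of endothelial markers and of genes higher in lung (upper panel) and of genes higher in heart (lower panel) in every library, with lung replicates 1 to 3 as blue points, lung replicate 4 as a diamond, heart as red points and the group mean as a bar. Apart from Pecam1 and Cdh5, whose groups overlap, every lung library lay on one side of every heart library for the genes drawn.

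Genes that clear or convert circulating mediators were called in both directions, 7 of 19 higher in lung and 4 higher in heart (median 0.51), and 8 and 3 with lung replicate 4 alone. The lung side held the enzymes and carriers for which the pulmonary bed is known. Slco2a1, the prostaglandin transporter, was at 9.60, 12.06, 11.66 and 10.76 in lung and at 4.11, 5.69, 5.05, 5.37 and 5.53 in heart (61.9-fold, log2 5.95, SE 0.51, adjusted p = 2.38e-05 by edgeR). Hpgd (chr8:56294585-56321043), which inactivates prostaglandins after uptake, was at 8.56, 7.79, 9.25 and 12.39 in lung and at 3.49, 5.65, 4.01, 3.71 and 4.24 in heart. Lung replicate 4 was the highest for Hpgd by a wide margin, heart replicate 2 was the highest heart library, and the groups did not overlap (5.56, SE 0.88, adjusted p = 0.000551). Ace, which converts angiotensin I and breaks down bradykinin, was at 9.04, 9.72, 9.76 and 11.08 in lung and 6.45 to 7.48 in heart (8.26-fold, log2 3.05, SE 0.43). Mme (neprilysin, 3.37), Maob (1.76) and Ece1 (endothelin-converting enzyme, 1.24) were also higher in lung. On the heart side were Enpp3, an ectonucleotidase (−4.36), Abcc4, an exporter of cyclic nucleotides and prostanoids (−3.75), Cpm, a carboxypeptidase (−1.80), and Slc29a1, a nucleoside transporter.

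Vascular tone and prostanoid genes split 8 to 7 of 25, close to the shares over all genes. Their median log2 fold change was 0.40, and 0.58 with lung replicate 4 alone. Among peptide receptors, Aplnr (apelin receptor) was at 4.80, 4.98, 4.91 and 5.76 in lung and 8.87 to 9.26 in heart (14.4-fold higher in heart, log2 −3.85, SE 0.28, adjusted p = 1.33e-05 by edgeR), whereas Bdkrb2 (bradykinin receptor) was at 5.35 to 5.83 in lung and 1.96 to 3.45 in heart (2.90, SE 0.31). The adrenomedullin system was split between the organs. Adm, the ligand, was at 0.23 to 1.71 in lung and 4.75 to 5.63 in heart (23.9-fold higher in heart, log2 −4.58, SE 0.35), while Ramp2, which turns the receptor Calcrl into an adrenomedullin receptor, was at 10.17, 10.29, 10.61 and 12.55 in lung and 8.98 to 9.56 in heart (1.91, SE 0.52, adjusted p = 0.0104). Calcrl itself was at 6.78, 7.19, 7.07 and 9.96 in lung and 8.00 to 8.59 in heart, so that lung replicate 4 lay above and the other lung libraries below every heart library. Its difference did not pass the test (−0.23, SE 0.63, adjusted p = 0.766 by edgeR), and with lung replicate 4 alone the log2 fold change was 1.65. Ptgis (prostacyclin synthase) was higher in lung (2.68), and Nos3 (−1.66), the endothelial nitric oxide synthase, Adora2a (−2.06) and Ptger4 (−2.52), receptors for adenosine and prostaglandin E2, were higher in heart.

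Known markers of lung capillaries were called higher in lung for 16 of 24 genes and higher in heart for 2 (median 4.08). With lung replicate 4 alone, 19 and 0 were called, at a median of 2.30. Foxf1 (chr8:121084386-121088144), a forkhead factor of the pulmonary mesoderm and its vessels, was at 7.27, 7.37, 7.92 and 9.70 in lung and at 0.08, 2.55, 0.30, 0.10 and −0.74 in heart (189-fold, log2 7.56, SE 0.70, adjusted p = 3.53e-05 by edgeR). Lung replicate 4 was again the highest, and heart replicate 2, which also had the highest Sftpc and Scgb1a1 levels of heart, was the highest of heart. Sema3c (7.88), Fibin (6.18), Scn7a (5.73) and Prx (5.51) were also higher in lung. Tmem100 (4.88) was at 6.69, 7.53, 8.04 and 11.46 in lung and 2.21 to 5.09 in heart. Its fold change fell to 3.26 without lung replicate 4. Emp2 was at 11.47, 13.98 and 13.56 in lung replicates 1 to 3, at 9.22 in lung replicate 4 and at 6.94 to 7.36 in heart, and its fold change fell from 5.33 to 1.92 with lung replicate 4 alone. Car4, a carbonic anhydrase of capillary ECs, was at 8.56, 8.98, 9.18 and 9.85 in lung and 7.60 to 8.56 in heart (1.18, SE 0.32, adjusted p = 0.0106), so that the highest heart library all but met the lowest lung library. The 2 members higher in heart, Kitl (−1.98) and Tspan13 (−1.67), were not called with lung replicate 4 alone (−0.45 and −0.18).

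Patterning factors of heart and lung divided between the organs, with 13 of 26 higher in lung and 11 higher in heart, and 11 and 12 with lung replicate 4 alone. Tbx2, a T-box repressor, was at 9.35, 9.32, 10.10 and 8.05 in lung and at 2.67, 2.88, 2.46, 2.38 and 2.90 in heart (104-fold, log2 6.70, SE 0.43, adjusted p = 7.83e-06 by edgeR). Tbx4, a T-box factor of lung mesenchyme, had 388 counts over the lung libraries and 2 over the heart libraries (ratio 233, interval 64 to 1.93e+03), and Gata3 was at 6.65 to 8.88 in lung and 1.07 to 3.53 in heart (5.15, SE 0.47). Epas1 (HIF-2 alpha), the hypoxia-inducible factor abundant in ECs, was at 11.39 to 12.96 in lung and 10.54 to 11.29 in heart (1.60, SE 0.39, adjusted p = 0.00606). Nkx2-1, a factor of lung epithelium, was also on the lung side (9.49), where the alveolar type 2 and airway lists were high. Within lung it was lowest in replicate 4 (5.20), which had the lowest type 2 sum (3080). The airway sum was highest there (5430), as was Scgb1a1 (12.01). Of the other airway list members named here, Scgb3a2 (7.43), Cyp2f2 (8.37) and Cdh1 (5.96) were lowest there. The part of epithelium in the Nkx2-1 difference was not tested. On the heart side, Hand2, a factor of cardiac progenitors and endocardium, had 2 counts in lung and 2346 in heart (ratio 978 in favour of heart, interval 270 to 8.08e+03). Tbx20 (−5.67), Gata4 (−4.88) and Meox1 (−3.99) were higher in heart, all called with lung replicate 4 alone.

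Of 39 Hox genes, which mark position along the body axis, 14 had counts enough to be tested, and 11 were higher in lung and 1 in heart (median 2.75, and 10 and 0 with lung replicate 4 alone). The 11 were all of the Hoxa and Hoxb clusters, Hoxa2 to Hoxa5, Hoxa7 and Hoxb2 to Hoxb7. Hoxa5 was at 7.74, 9.34, 8.29 and 7.36 in lung and at 1.48, 2.65, 1.89, 1.87 and 2.00 in heart (80.3-fold, log2 6.33, SE 0.46, adjusted p = 1.32e-05 by edgeR), and Hoxb4 (5.83) and Hoxb5 (4.02) followed. The 1 gene higher in heart was Hoxd8 (−1.35, SE 0.47, adjusted p = 0.0313 by edgeR), whose groups overlapped. It lost its call without any 1 of 6 libraries (adjusted p up to 0.104).

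Genes of the VEGF and angiopoietin axis leaned to heart, with 7 of 16 higher in heart and 4 in lung (median −0.68), and 7 and 3 with lung replicate 4 alone. Of the receptors, Kdr (VEGFR2) was at 7.31, 7.67, 8.69 and 8.72 in lung and at 10.59, 10.98, 10.72, 11.05 and 10.65 in heart (5.98-fold, log2 −2.58, SE 0.38, adjusted p = 0.00039 by edgeR), and Nrp2, a coreceptor, was also higher in heart (−2.49). Flt4 (VEGFR3) was higher in lung (1.08), with a smaller difference for lung replicate 4 alone (0.34). Flt1 (VEGFR1) was at 10.71, 12.47, 11.98 and 9.85 in lung and 10.30 to 10.79 in heart, which did not pass the test (0.91, adjusted p = 0.0765), and lung replicate 4 lay below every heart library where the other 3 lung libraries lay near or above the highest. Of the ligands, Vegfa (1.72) and Vegfd (4.05) were higher in lung and Vegfc (−5.38) and Vegfb (−2.61) in heart.

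The BMP and TGF-beta axis had 6 of 29 genes higher in lung and 11 in heart with all lung libraries, and 10 and 5 with lung replicate 4 alone, with medians of −0.27 and 0.34. The direction of the list as a whole thus depended on which lung libraries were used. Acvrl1 (ALK1), the endothelial type I receptor for BMP9 and BMP10, was at 10.87, 10.60, 11.04 and 10.97 in lung and 8.11 to 8.62 in heart (5.61-fold, log2 2.49, SE 0.25, adjusted p = 4.95e-05 by edgeR). Bmpr2, its type II partner, was at 9.43 to 11.55 in lung and 8.58 to 9.07 in heart (1.93, SE 0.34), and their target Smad6 was also higher in lung (2.75), as was Bmp4 (2.66). Their coreceptor Eng (endoglin) was at 6.36, 6.70 and 6.47 in lung replicates 1 to 3, at 10.22 in lung replicate 4 and at 10.24 to 10.87 in heart. Eng was called higher in heart with all lung libraries (−2.76, SE 0.86, adjusted p = 0.0192 by edgeR), and its log2 fold change was −0.42 with lung replicate 4 alone. On the TGF-beta side, Tgfbr2 (−3.14) and the latent TGF-beta binding protein Ltbp4 (−3.09) were higher in heart, both also with lung replicate 4 alone.

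Wnt axis genes leaned to lung, with 13 of 25 higher in lung and 2 in heart (median 1.19), and 14 and 2 with lung replicate 4 alone. Nkd1, a feedback inhibitor induced by Wnt signals, was at 8.48, 8.53, 9.22 and 8.85 in lung and at 2.34, 3.59, 2.45, 3.15 and 2.84 in heart (58.6-fold, log2 5.87, SE 0.36, adjusted p = 7.59e-06 by edgeR). Axin2, another feedback target, was at 3.95 to 5.35 in lung and 0.95 to 1.53 in heart (3.48, SE 0.35), and the transcription factor Tcf7 was higher in lung too (2.93). The 2 genes higher in heart were Tspan12, a coreceptor of Fzd4 (−4.54, SE 0.51), and Tcf7l1 (−0.80). Several members are ligands known from epithelium, such as Wnt7a and Wnt7b, and the part of other cells was not tested. Notch and arteriovenous genes split 6 to 3 of 21, a share higher in lung close to that over all genes, and 7 to 5 with lung replicate 4 alone. Hey1, a Notch target of arterial ECs, was at 8.69 to 9.56 in lung and 7.02 to 7.34 in heart (1.95, SE 0.23, adjusted p = 0.000127). The ligand Dll1 (1.97) and the arterial connexins Gja5 (1.75) and Gja4 (1.41) were higher in lung.

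The third vascular connexin went the other way. Gja1 (connexin 43) was at 3.16, 3.09, 1.84 and 3.60 in lung and at 8.01, 7.72, 8.33, 8.17 and 7.77 in heart, 33.3-fold higher in heart (log2 −5.06, SE 0.40, adjusted p = 1.88e-05 by edgeR), and Cxcl12 (−2.34) and Unc5b (−1.04) were higher in heart as well. Cardiomyocytes also make Gja1, and their list was higher in heart as well. Among the heart libraries Gja1 was lowest in replicates 2 and 5, which had the highest cardiomyocyte sums (10300 and 12600), and highest in replicates 3 and 4, which had the lowest (6680 and 6300). The part of cardiomyocytes in the Gja1 difference was not tested.

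Junction genes were called 8 to 8 of 26, close to the shares over all genes, but the members differed. Their median log2 fold change was −0.48, and 0.17 with lung replicate 4 alone. Cldn5, the claudin of endothelial tight junctions, was at 12.10, 12.62, 12.27 and 11.41 in lung and at 8.21, 8.41, 8.05, 8.65 and 8.41 in heart (14.0-fold, log2 3.80, SE 0.32, adjusted p = 2.32e-05 by edgeR), and Ocln (occludin) was higher in lung (2.59). The junctional adhesion molecules Jam3 (−4.16) and Jam2 (−3.62) and T-cadherin (Cdh13, −4.14, SE 0.24) were higher in heart. Cldn3, an epithelial claudin, was also higher in lung (7.33), where the epithelial lists were high. Of 12 caveolae and diaphragm genes, 7 were higher in heart and 3 in lung (median −1.61), and 4 and 3 with lung replicate 4 alone. Cav1, the main coat protein of caveolae, was at 8.25, 7.83, 8.25 and 11.63 in lung and at 11.62, 11.36, 11.87, 12.21 and 11.85 in heart. Lung replicate 4 lay within the heart range and the other lung libraries far below. The call towards heart (−2.42, SE 0.89, adjusted p = 0.0393 by edgeR) was lost without any 1 of 6 other libraries (adjusted p up to 0.162). With lung replicate 4 alone the log2 fold change of Cav1 was 0.11. Cavin2 was higher in heart (−1.71), also with lung replicate 4 alone, and Ehd4 (3.65) and Plvap, the protein of endothelial diaphragms (2.66), were higher in lung. Cavin1 was higher in lung (1.78), with a smaller difference for lung replicate 4 alone (0.53).

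Basement membrane genes were mostly higher in heart, 15 of 23 against 4 higher in lung (median −2.28), and 15 and 3 with lung replicate 4 alone (median −1.22). Nid2 (nidogen 2) was at 0.75, 1.41, 0.22 and 1.11 in lung and at 7.32, 6.70, 6.70, 7.12 and 7.26 in heart (72.6-fold, log2 −6.18, SE 0.37, adjusted p = 6.78e-06 by edgeR). Lama4, the laminin chain of endothelial basement membranes, was at 3.93, 2.64, 2.68 and 3.42 in lung and at 8.71, 8.48, 8.38, 8.49 and 8.49 in heart (42.5-fold, log2 −5.41, SE 0.30). The libraries of each organ lay within a narrow range for both genes, lung replicate 4 included. Lamb1 (−3.59), Col4a1, a collagen IV chain (−3.42), and Sparc, a matrix protein that binds collagen IV (−4.41), were higher in heart as well. Lamb3 (2.93), higher in lung, is a chain of the laminin of epithelial basement membranes, and the alveolar type 2 and airway lists were higher in lung as well. Within lung Lamb3 was lowest in replicate 4 (2.52). The part of epithelium in the Lamb3 difference was not tested.

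Coagulation and fibrinolysis genes split 5 to 4 of 17, near the shares over all genes, and 7 to 4 with lung replicate 4 alone. Plaur, the urokinase receptor, was at 6.14 to 7.40 in lung and 4.18 to 4.77 in heart (2.07, SE 0.27, adjusted p = 0.000203 by edgeR), and Thbd (thrombomodulin), at 9.51, 10.12, 10.89 and 11.95 in lung and 9.14 to 9.55 in heart, was higher in lung with overlapping groups (1.42, SE 0.45, adjusted p = 0.0212). S100a10, which binds plasminogen activator at the cell surface (−3.46), and Tfpi2, a protease inhibitor (−6.79), were higher in heart. Vwf (von Willebrand factor) was at 7.52, 8.25 and 7.54 in lung replicates 1 to 3, at 10.58 in lung replicate 4 and at 8.92 to 9.73 in heart. It did not pass the test (−0.53, adjusted p = 0.497 by edgeR), and its log2 fold change was 1.41 with lung replicate 4 alone.

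Of 20 leukocyte adhesion and recruitment genes, 2 were higher in lung and 5 in heart (5 and 7 with lung replicate 4 alone). Cxcl9, an interferon-induced chemokine, was at −1.26, −0.07, −0.08 and 1.43 in lung and at 6.69, 6.27, 6.06, 6.37 and 6.22 in heart (log2 −6.09, SE 0.44, adjusted p = 1.32e-05 by edgeR), and Ackr3, a scavenger of Cxcl12, was also higher in heart (−2.37). Ackr2, a scavenger of inflammatory chemokines (2.43), and Cx3cl1 (fractalkine, 1.42) were higher in lung. Vcam1 was at 6.87 to 7.46 in lung and 7.09 to 7.48 in heart and did not pass the test (−0.09, SE 0.18, adjusted p = 0.666). Icam1, the endothelial ligand of leukocyte integrins, was at 6.32, 6.90, 6.10 and 8.07 in lung and at 6.50 to 7.00 in heart and was not called either (0.23, SE 0.38, adjusted p = 0.622 by edgeR). The groups overlapped, and Icam1 was highest in lung replicate 4. Its log2 fold change was 1.32 with lung replicate 4 alone and −0.30 without that library (adjusted p = 0.217 by edgeR). Endotoxin sensing genes split 5 to 5 of 17, close to the shares over all genes, and 7 to 4 with lung replicate 4 alone. Within the receptor complex for LPS, Tlr4 was at 2.37, 2.86, 3.00 and 2.94 in lung and 4.05 to 4.88 in heart (−1.55, SE 0.27, adjusted p = 0.00105), whereas its coreceptor Ly96 (MD-2) was at 4.23 to 5.12 in lung and 3.12 to 3.64 in heart (1.19, SE 0.26, adjusted p = 0.00367). Tlr2 was higher in heart (−1.12) and Nfkbia, the inhibitor that NF-kappaB induces, was higher in lung (3.23).

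All 8 MHC class II genes tested were higher in lung (median 3.20, and 7 of 8 with lung replicate 4 alone, median 3.43). These genes present peptides to CD4+ T cells and are driven by Ciita, which acts through factors bound to conserved boxes in their promoters. H2-Aa (chr17:34282744-34287823) was at 8.26, 7.83, 7.88 and 8.90 in lung and at 4.98, 4.60, 3.77, 3.65 and 3.98 in heart (15.4-fold, log2 3.95, SE 0.23, adjusted p = 6.78e-06 by edgeR). The largest fold change was that of H2-DMb1, a chain of the peptide-loading molecule H2-DM, at 7.96, 7.80, 7.47 and 5.38 in lung and 0.44 to 2.52 in heart (67.7-fold, log2 6.08, SE 0.64), which fell to 3.28 with lung replicate 4 alone. H2-Ab1 (3.94), H2-Eb1 (3.13) and the invariant chain Cd74 (2.19, SE 0.40, adjusted p = 0.00129) were higher in lung too, and Ciita was at 0.86 to 3.00 in lung and −1.75 to 0.30 in heart (2.69, SE 0.44). Macrophages, lymphocytes and alveolar type 2 cells also make class II molecules, and their lists were higher in lung (macrophage sums 281 to 1050 against 60.5 to 104 CPM, lymphocyte sums 52.6 to 232 against 3.07 to 8.21 CPM). Lung replicate 4, with the lowest lymphocyte (52.6) and alveolar type 2 (3080) sums of the lung libraries and a macrophage sum of 365, had the highest H2-Aa, H2-Ab1, H2-Eb1 and Cd74 levels and the lowest H2-DMb1 level. The part of these cells in the result was not tested.

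RefSeq promoters (250 bases before to 50 after the transcript start, GRCm38.p6) were given for 6 of the 9 class II genes, and they were searched on both strands for the Y box CTGATTGG and for TGACGTCA, a cyclic AMP response element like that of the X2 box. The Y box was found in 3 genes (H2-Oa, H2-Aa and H2-Eb1), against 4.1% of all 32851 promoters, and TGACGTCA in 1 (H2-Aa), against 1.79%. A match is a description of letters and not a bound site. The promoters of H2-Aa (chr17:34287774-34288073, minus strand) and H2-Eb1 (chr17:34305617-34305916, plus strand) are shown, the pair of antigen-binding chain genes with a match, with both motifs in capitals.
H2-Aa: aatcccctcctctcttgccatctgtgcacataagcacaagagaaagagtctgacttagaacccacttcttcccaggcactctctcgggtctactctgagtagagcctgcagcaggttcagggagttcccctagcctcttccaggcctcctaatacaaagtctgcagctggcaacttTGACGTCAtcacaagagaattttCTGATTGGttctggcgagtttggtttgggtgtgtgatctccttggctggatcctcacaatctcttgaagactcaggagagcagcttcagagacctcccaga
H2-Eb1: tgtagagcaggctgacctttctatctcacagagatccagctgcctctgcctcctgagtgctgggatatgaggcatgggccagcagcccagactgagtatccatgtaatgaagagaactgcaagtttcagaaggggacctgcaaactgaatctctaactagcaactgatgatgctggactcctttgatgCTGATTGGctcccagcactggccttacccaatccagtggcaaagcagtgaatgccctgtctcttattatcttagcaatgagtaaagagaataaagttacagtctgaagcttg

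MHC class I genes had 6 of 15 higher in lung and 1 in heart (median 0.11), and lung replicate 4 alone also gave 6 and 1, with 4 of the lung genes shared. With all lung libraries the 6 were the peptide transporters and processing genes Tap1, Tap2, Tapbp, Psmb8, Psmb9 and Psmb10, led by Psmb10 (3.29, SE 0.43, adjusted p = 0.000203 by edgeR), a subunit of the immunoproteasome. With lung replicate 4 alone the log2 fold change was only 0.14 for Tap1 and −0.10 for Psmb8. B2m, the light chain of class I molecules, was at 7.43, 7.55 and 7.52 in lung replicates 1 to 3, at 10.38 in lung replicate 4 and at 10.96 to 11.92 in heart (−2.93, SE 0.62, adjusted p = 0.00277 by edgeR). Its log2 fold change was −1.31 with lung replicate 4 alone. H2-K1, a class I heavy chain whose reads may be shared with its close relatives, was at 10.38 to 11.51 in lung and 10.38 to 11.44 in heart and was not called (−0.08, SE 0.34, adjusted p = 0.839 by edgeR).

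Genes of glycolysis were mostly higher in heart, 16 of 27 against 5 higher in lung (median −1.11), and 10 and 3 with lung replicate 4 alone. Pfkfb3, the activator of glycolysis in ECs, was higher in lung, at 6.29 to 7.34 against 5.93 to 6.29 in heart (0.81, SE 0.24, adjusted p = 0.0144 by edgeR), and Ldha (−1.36) and the glucose transporter Slc2a1 (−1.61) were higher in heart. The largest differences towards heart were in the muscle isoforms Eno3 (−4.75) and Pgam2 (−4.06), with Pfkm at −2.46, and all 3 were highest in heart replicate 5, as was the cardiomyocyte sum (12600). In lung, Pgam2 was lowest in replicate 4 (−0.09), where the cardiomyocyte sum was highest (218). Of 96 respiratory chain genes, 40 were higher in heart and 22 in lung (median −0.31), and 28 and 4 with lung replicate 4 alone. The largest differences towards heart were in Cox6a2 (−4.67), Cox8b (−4.40) and Cox7a1 (−4.25), muscle isoforms of cytochrome oxidase subunits, each highest in heart replicate 5, where the cardiomyocyte sum was highest as well. The part of cardiomyocytes in these differences was not tested. All 7 of the mitochondrially encoded genes tested were higher in heart with lung replicate 4 alone and 4 of 7 with all lung libraries. Among them mt-Co1 was at 7.84, 8.13, 5.51 and 7.13 in lung and 11.06 to 11.99 in heart (−4.09, SE 0.56).

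Of 235 solute carriers, 61 were higher in lung and 74 in heart, shares near those of all genes (median −0.39), and 41 and 68 with lung replicate 4 alone. Beside Slc6a2 and Slco2a1, the lung side held Slc16a9, a carnitine and monocarboxylate carrier, at 5.86, 7.15, 7.37 and 7.86 in lung and 0.20 to 2.02 in heart (5.76, SE 0.49, adjusted p = 2.32e-05 by edgeR). Slc6a9, the glycine transporter, was higher in lung too (3.84), and Slc38a5, a glutamine transporter, had 1254 counts in lung and 3 in heart (ratio 502, interval 171 to 2.44e+03). Slc26a10, which overlaps a gene on the other strand, was higher in heart (−5.09).

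**Figure D5:**
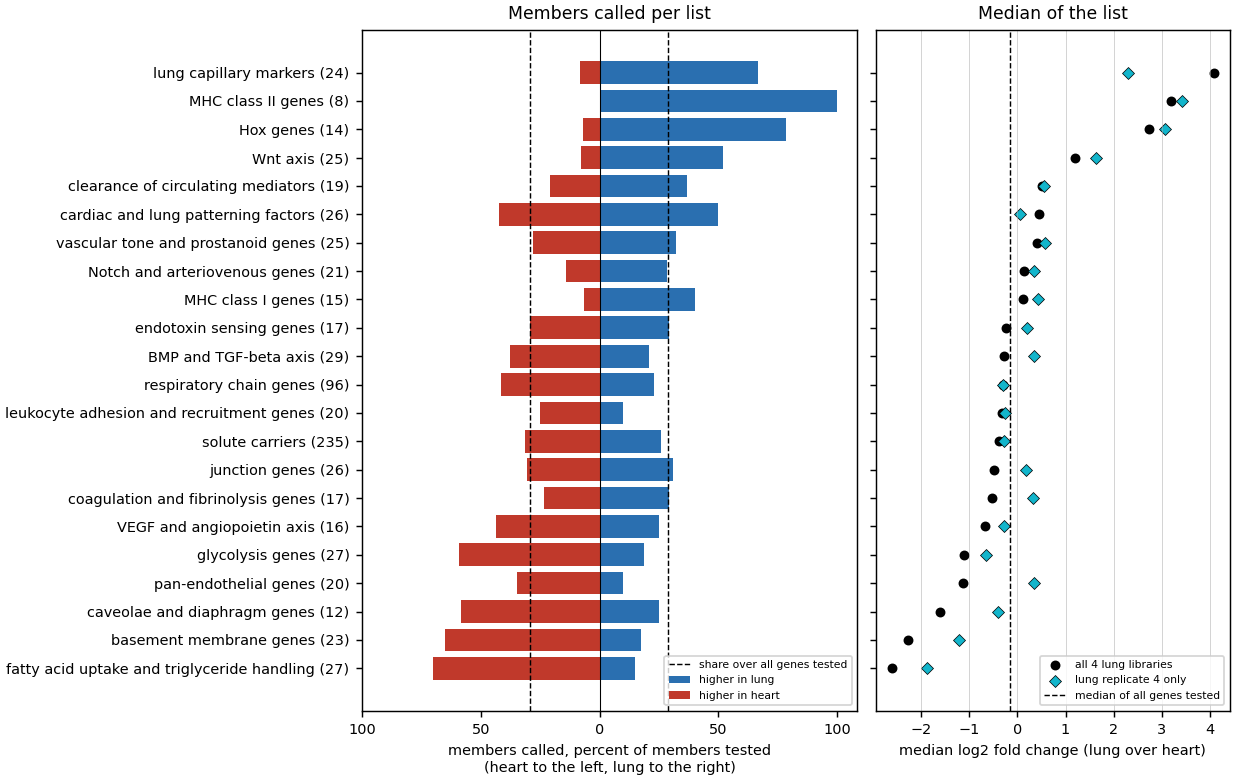
For each list or gene family, the percent of tested members called higher in lung (blue, right) or in heart (red, left), beside the shares over all genes tested (dashed, 29.0% and 29.5%), and the median log2 fold change with all 4 lung libraries (points) or with lung replicate 4 only (diamonds). Lung capillary markers, MHC class II, Hox and Wnt genes had the highest medians, and fatty acid and basement membrane genes the lowest. Pan-endothelial genes had a median below 0 with all lung libraries and above 0 with lung replicate 4 only.

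Pan-endothelial genes, which mark ECs of every organ, were called 2 higher in lung and 7 in heart of 20 (median −1.13). With lung replicate 4 alone the median was 0.34. Without lung replicate 4, 3 were higher in lung and 15 in heart (median −1.64). Of all 15267 genes, 5022 were then higher in lung and 6298 in heart. With all lung libraries Egfl7 (3.05) and Clec14a (1.60) were higher in lung and Fli1 (−3.87), Kdr and Emcn (−1.73, SE 0.24) higher in heart. Their direction was the same with lung replicate 4 alone. Tie1 was at 7.47, 7.03, 7.63 and 10.25 in lung and 9.86 to 10.35 in heart. Its call towards heart (−1.79, adjusted p = 0.033 by edgeR) was lost without any 1 of 6 libraries other than lung replicate 4 (adjusted p up to 0.126). With lung replicate 4 alone its log2 fold change was 0.09.

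The same genes were followed in the lung and heart libraries after LPS. Of the genes chosen by the naming rules, a larger set than the 186 followed under other settings, 131 were higher in lung and 99 in heart at 0 hr, and it was counted how many still had every library of the same organ above every library of the other, a description with no test, since group sizes differ. At 6 hr after LPS (4 lung and 5 heart libraries) 23 and 42 were apart, at 24 hr (2 and 4) 111 and 88, at 48 hr (6 and 6) 74 and 64, at 72 hr (4 and 4) 100 and 88, and at 168 hr (4 and 4) 115 and 89. These genes were chosen for their differences at 0 hr, and the share of all genes apart at each later time was not taken. Groups of few libraries, as at 24 hr, also lie apart more easily by chance. The counts therefore do not measure how far organ differences lasted. The 6 hr lung libraries held 2678119, 2745503, 40128330 and 284457 counts on genes, and the last of these, replicate 4, had no count for 137 of the 230 genes. Without it, a choice made after seeing the data, 49 and 44 were apart at 6 hr. At all 5 times 20 of the lung genes, among them Foxf1 and Tbx2, and 25 of the heart genes, among them Fabp4, Kdr, Gja1, Nid2 and Tbx20, were apart. Without that library the numbers were 38 and 27. Fabp4 lay between 7.51 and 11.65 in lung and 12.65 and 13.53 in heart at 6 hr, and between 7.16 and 10.55 and between 12.92 and 13.46 at 168 hr. Ace was apart at 72 and 168 hr only. At 24 hr Car4 had the opposite order, at 8.20 to 8.22 in lung and 9.10 to 9.57 in heart, and at 168 hr it was again higher in every lung library (8.69 to 10.08, against 6.45 to 7.94).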

How the data were processed

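The authors aligned reads to mm10 with STAR 2.4.2 and counted reads per gene with HTSeq 0.6.1, and the deposited files hold these raw counts, 1 file per sequencing run. The annotation release and strand setting were not given in the sources used here. Names and positions came from the GENCODE reference annotation of the same build. Runs of one library were summed, and libraries with under 3% of reads on genes were left out (lung replicate 5 with 757542 counts and heart replicate 6 with 630497). Genes were tested with edgeR 4.0.16 (filterByExpr, TMM, quasi-likelihood, library series as covariate, Benjamini-Hochberg adjustment over all 15267 genes, threshold 0.05) in R 4.3.3, and the procedure was tested on simulated data. SE is the absolute log2 fold change over the square root of F. The alternatives used DESeq2 1.42.0 and limma 3.58.1. Labels do not say that libraries came from separate animals, so p-values measure the spread between libraries.

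Genes were named where they had the 10 largest differences per direction with an average log2 CPM of at least 5 and no overlap, also outside lists of other cells, the 3 largest per list and direction at an average of at least 3, or were needed to account for a list, the last chosen with their values seen. A few genes that this rule names are not reported here. Members and lists were chosen with earlier results of these data known. Ratios for genes with 3 or fewer counts in an organ carry exact counting intervals, which cover counting error only. Lung and heart libraries with the same replicate number did not deviate together (r = −0.008 to 0.093 over 4 pairs). Libraries with the same mouse number in the file names gave r = 0.046 to 0.154 over 3 pairs, and the labels name no mouse. No pairing was used in the main test, and both blocks were alternatives.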

Additional observations from a re-analysis of the deposited data

Results flagged for a closer look

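Within the 376 groups of values, those of 186 genes and 2 measures of the libraries, each of 4 lung or 5 heart libraries, 37 had 1 library far from the rest of its group by Dixon's criterion, which chance meets in about 1 in 20 groups. Lung replicate 4 was that library in 19 of them and heart replicate 2 in 9.

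Levels are log2 CPM. Lung replicate 4 was above the other lung libraries for Eng (10.22), Calcrl (9.96), Tspan13 (9.78), Cav1 (11.63), Tgfbr2 (6.04), Ltbp4 (8.15), Tspan12 (4.77), Tcf7 (5.72), Ackr3 (6.74) and B2m (10.38). It was below them for Ptgis (6.03), Rprml (4.61), Bmp4 (7.01), Hoxa7 (3.54), Lamb3 (2.52) and for genes of epithelium, Sftpc (10.58) and Cdh1 (5.96). Lung replicate 4 also differed for the heart muscle genes Adprhl1 (−2.48, with 1 count) and Myl3 (−2.48).

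Heart replicate 2 was above the other heart libraries for Slc6a2 (2.81), Prx (4.91), Nkx2-1 (−0.25), Slc34a2 (1.41), Scgb3a2 (−2.44, with 1 count), Scgb1a1 (2.83), Sftpc (5.18) and Cldn18 (0.42), all higher in lung, and for Aplnr (9.26), which was higher in heart. Without heart replicate 2, 4075 genes were higher in lung and 4105 in heart.

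Of the remaining values, Hoxa2 was low in lung replicate 2 (0.54), Tap1 was high in heart replicate 1 (7.29), Clec14a was low in lung replicate 1 (9.37), Hand2 was −2.60 in lung replicate 3 and had no counts in the other lung libraries, Vegfc was low in heart replicate 3 (5.92) and Bmp4 high (6.21), Cavin2 was low in heart replicate 5 (10.59) and Foxa2 was −2.57 there, and Slc16a9 was low in heart replicate 1 (0.20).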

How the results depend on the processing

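Both counts of genes stayed within 1.5 times of the values above under every planned setting other than no minimum share of reads and library series 1, and under lung replicate 4 alone (3175 higher in lung, 3291 in heart), a setting chosen after seeing the data. With the 2 libraries under the minimum share of reads put back, 2675 genes were higher in lung and 3593 in heart, and the difference in the share of reads on genes was −28.2 points (exact permutation p = 0.0866). Within library series 1 edgeR called 0 genes either way, and so the number of lists with more members higher in lung than in heart went from 21 to 0. Leaving out 1 library at a time gave 3776 to 5330 genes higher in lung, 3423 to 6411 higher in heart and 18 to 23 such lists, and a difference in share of −41.1 to −28.7 points. The highest counts were those without lung replicate 4, and the cause was not tested.

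Of 4269 values of 186 genes under the alternatives, 3937 kept direction and side of the threshold, 279 lost the threshold (176 of them within library series 1), 30 passed it and 23 changed sign. With lung replicate 4 alone the log2 fold change was 0.49 for Pecam1, 0.58 for Cdh5, 0.09 for Tie1, 1.65 for Calcrl, −0.58 for Flt1, 0.11 for Cav1, 1.41 for Vwf, −0.30 for Dgat1 and −0.10 for Psmb8. Within library series 1 it was 0.82 for Calcrl, −0.04 for Flt1 and 0.60 for Vwf. Calcrl was 0.16 with no series covariate and −1.30 to 0.11 when single libraries were left out, with 0.06 without lung replicate 2 and 0.11 without lung replicate 3. Icam1, which no setting but lung replicate 4 alone called, was −0.30 with the mouse of the file names as a block, −0.25 within library series 2 and −0.30 without lung replicate 4. H2-K1, close to 0 and never called, was 0.34 with lung replicate 4 alone and −0.34 without it, 0.04 and 0.08 without heart replicates 1 and 3, and 0.07 and 0.02 without lung replicates 1 and 3. Leaving out 1 library also ended calls by edgeR. Tie1 (adjusted p up to 0.126) and Cav1 (up to 0.162) lost theirs without heart replicate 3, 4 or 5 or lung replicate 1, 2 or 3, Hoxd8 (up to 0.104) without heart replicate 1, 3, 4 or 5 or lung replicate 2 or 3, and Thbd (up to 0.0714) without heart replicate 1 or 2 or lung replicate 3. Eng (up to 0.0856), Kitl (0.0509) and Tspan13 (0.0613) lost theirs without lung replicate 2 or 3. Dgat1 (up to 0.114) lost its call without any 1 library other than lung replicate 4, Psmb9 (up to 0.0934) and Tapbp (up to 0.073) without any of 4 and 3 libraries, and Hoxa2 (0.051) and Hoxb7 (0.107) without lung replicate 3. Without lung replicate 4, Pecam1, Cdh5, Calcrl (−1.30), Gpihbp1 and Vwf (−1.60) were higher in heart and Flt1 (1.20) in lung, and Gpihbp1 passed also without lung replicate 2 and Rpl22 without lung replicate 1. With a replicate block in the fit, 3981 genes were higher in lung and 5147 in heart, 183 of 186 genes kept their call (Cdh5 passed, with adjusted p = 0.0097, and Hoxb7 and Tapbp did not), and 10 of 74 list counts moved by over 1.5 times. With the mouse number of the file names as a block, 4374 and 5585 genes were called, Cdh5, Gpihbp1, Calcrl, Flt1 and Vwf passed, Hoxd8, Thbd, Hoxb7 and Tapbp lost their call, and 13 of 74 list counts moved by over 1.5 times. A prior count of 0.5 moved 13 of 372 group means by over 1 SD. Depth was lowest in lung replicate 1, where 3 counts correspond to 0.818 CPM.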
